A study of Mus musculus with 4 samples.

Results

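S100 genes encode small calcium-binding proteins with paired EF-hand motifs that mostly work as dimers. S100a8 and S100a9 encode the subunits of calprotectin, a heterodimer that fills the cytosol of neutrophils and monocytes, binds zinc, manganese and calcium, and acts outside the cell as a danger signal. The other members examined here are used by many cell types: S100a10 pairs with annexin A2 at membranes, S100a4 binds non-muscle myosin, S100a6 binds calcyclin-binding protein, S100a11 pairs with annexin A1, S100a13 takes part in the unconventional release of fibroblast growth factor, and S100a1 is best known from muscle. The 8 members were listed by name and matched by symbol to the gene identifiers, 8 of 45232 in all, and all 8 were among the 15591 genes with enough counts to be tested. The calprotectin pair is contrasted with the other 6 members.

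RNA was sequenced from leukemic granulocyte-macrophage progenitors (L-GMPs) taken when mice carrying MLL-AF9 leukemia as secondary recipients died. MLL-AF9, a fusion protein, drives acute myeloid leukemia. The groups were Scr, with 2 mice, and miR-99 KD, with 2 mice, 1 library each, and every library came from MLL-AF9 cells sorted as positive for tdTom, GFP, CD34, CD16/32, c-Kit and Sca-1. The labels spell out neither group name, give no strain, age or sex, and do not say whether the mice shared a primary leukemia, so p-values measure the spread between these libraries.

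Gene counts per library ranged from 38458519 to 42674407. The gate genes Kit, Cd34, Fcgr3 and Fcgr2b were expressed in all 4 libraries, while Ly6a, the gene of Sca-1, had 4 to 8 counts. Scr 1 stood apart from the other libraries: it had counts in 28573 genes against 21372 to 24038, and its olfactory receptor genes summed to 51.9 CPM against 4.78 to 15 CPM in the others. CPM scales counts to the total of all gene counts in the library. On both measures miR-99 KD 2 came next, with 24038 genes and 15 CPM. Log2 CPM across genes, which are not independent replicates, correlated at 0.968 between the Scr libraries, at 0.977 between the miR-99 KD libraries and at 0.978 between Scr 2 and miR-99 KD 1. Scr 1 correlated at 0.957 with miR-99 KD 1 and at 0.958 with miR-99 KD 2, and Scr 2 at 0.957 with miR-99 KD 2. Mitochondrial genes took 0.650% and 0.637% of gene counts (Scr) against 0.853% and 1.16% (miR-99 KD). Results on the members are therefore also given without Scr 1.

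The microRNA family behind the comparison is shown for its seed, bases 2 to 8 from the 5′ end, in capitals (RefSeq, GRCm38.p6). The 3 family members share this seed.
mmu-miR-99a-5p: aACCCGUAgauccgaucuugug
mmu-miR-99b-5p: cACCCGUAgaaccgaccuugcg
mmu-miR-100-5p: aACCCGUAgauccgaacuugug
The 3′ untranslated regions of the S100 genes were searched for it. The longest annotated 3′ untranslated region of each member in GENCODE M21, 68 bases in S100a8 to 506 bases in S100a6, was searched on the transcript strand for TACGGGT, the match to bases 2 to 8, and for ACGGGTA, the match to bases 2 to 7 followed by A, which overlaps it. Of the 8 members 0 held either, beside 327 of 12387 tested genes with such a region (2.64%), whose median length was 1346 bases.

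All 8 members lie on chromosome 3 (GENCODE M21, GRCm38). S100a8 lies at chr3:90668978-90670035 on the plus strand, and S100a9 at chr3:90692632-90695721 on the minus strand, 22.6 kb away. S100a1 (chr3:90511034-90514392, minus) and S100a13 (chr3:90514435-90524581, plus) are divergent neighbours. S100a4 (chr3:90603771-90606045, plus) and S100a6 (chr3:90612882-90624181, plus) lie between these pairs. S100a11 (chr3:93520488-93526287, plus) and S100a10 (chr3:93555080-93564643, plus) lie 2.82 Mb beyond S100a9. The annotated exons of S100a4 overlap those of Gm42674 over 302 bases, 51.7% of its exon length. Gm42674 had 0 counts in every library, and reads in the overlap may have been counted for neither gene, so the S100a4 level is uncertain.

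The start regions of 3 members contain TATAAA, the string of the TATA box core promoter element, on the gene's own strand, and these stretches are printed to show that the pair and S100a4 share it. In RefSeq promoter windows (GRCm38.p6, 250 bases before to 50 after the annotated start, base 0 being the first transcribed base) it begins at base -30 in S100a8, at base -31 in S100a4 and at base 0 in S100a9, where the annotated start falls on the element itself. The S100a8 stretch lies inside the GENCODE M21 span of S100a8 given above, which begins upstream of the RefSeq start used for its window. The stretches lie at chr3:90669031-90669060 (plus), chr3:90695712-90695741 (minus) and chr3:90603730-90603759 (plus), with the element in capitals.
S100a8: agctttcctcTATAAAagcagctgacactt
S100a9: gtatctaacaaggagctgccTATAAAtact
S100a4: ctggcagggTATAAAtaggtcagattgttg
Windows existed for 7 of the 8 members. TATAAA on the gene's strand was found in 3 of the 7, beside 8.32% of 32851 windows of all genes. On either strand, GAGGAAG, the core bound by PU.1, was found in S100a8 (minus strand, base -171) and S100a4 (minus strand, base 18), beside 13.6% of windows. The C/EBP strings TTGCAAT (2.22% of windows) and TTGCGCA (2.02%) and the NF-kB string GGGACTT (5.44%) were in 0 of the 7. Such a match is a string in this window and not a measured binding site.

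S100a1 and S100a13 share a start region, printed because their starts lie so close together. The annotated genes are 42 bases apart, at chr3:90514393-90514434, given here on the plus strand.
S100a1 to S100a13: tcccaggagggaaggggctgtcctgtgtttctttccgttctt
Their promoter windows overlap by 204 of 300 bases, and TATAAA was in neither.

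Values by library are given in the order Scr 1, Scr 2, miR-99 KD 1, miR-99 KD 2 unless stated. S100a8, the smaller calprotectin subunit, had 127, 28.4, 438 and 1303 CPM, from 4886, 1191, 18695 and 55402 counts. Both miR-99 KD libraries lay above both Scr libraries, and each group was itself widely spread, 4.47-fold within Scr and 2.97-fold within miR-99 KD. The Scr mean was 77.7 ± 69.7 CPM (SD, n = 2). The miR-99 KD mean was 870 ± 611 CPM (SD, n = 2), 11.2 times as high. The log2 fold change of miR-99 KD over Scr was 3.57 ± 0.93 (SE), with an edgeR quasi-likelihood adjusted p of 0.569 and an unadjusted p of 0.0151. In bulk RNA of sorted cells a larger share of cells with calprotectin and more calprotectin RNA per cell cannot be told apart. The mitochondrial share of counts had its libraries in the same order as S100a8, and its part in the result was not tested.

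S100a9, the larger subunit, took the same course. It had 125, 29.4, 457 and 1494 CPM, from 4804, 1233, 19488 and 63529 counts. Here too the groups did not overlap, with miR-99 KD 2 highest and Scr 2 lowest. Means were 77.2 ± 67.5 CPM (SD, n = 2) and 975 ± 733 CPM (SD, n = 2), a ratio of 12.6, and the log2 fold change was 3.75 ± 0.94 (SE), with an edgeR adjusted p of 0.552 and an unadjusted p of 0.0137. Of 15591 genes tested, 30 had a higher log2 fold change than S100a9 and 32 a higher one than S100a8.

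**Figure D1:**
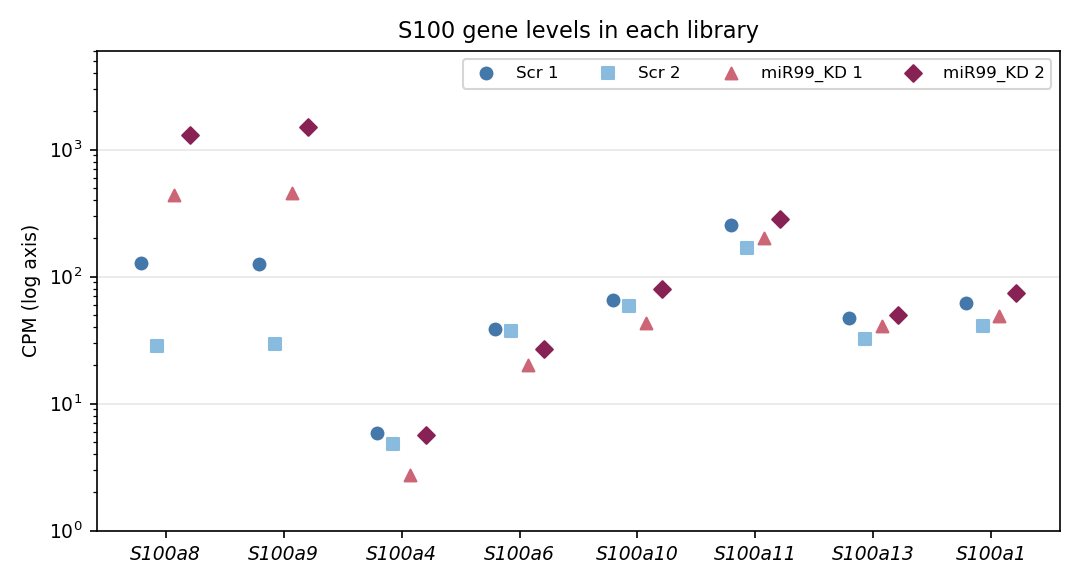
Level of each S100 gene in CPM (log axis) in the 4 libraries, 1 point per library. S100a8 and S100a9 run from 28.4 and 29.4 CPM in Scr 2 to 1303 and 1494 CPM in miR-99 KD 2, while each of the other 6 genes stays within a 2.17-fold range.

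The call on the pair depended on the tool and on the libraries used, and the size of its difference on the libraries. The edgeR test called 0 of the 15591 genes at an adjusted p under 0.05 (0%), and 0 of the 8 members. DESeq2 called both calprotectin genes higher in miR-99 KD, with adjusted p of 8.77e-04 for S100a8 and 3.98e-04 for S100a9, beside 0.725% of all genes called higher and 0.949% called lower. Without Scr 1, where the lone Scr library is taken to be as variable as miR-99 KD, edgeR also called both, with log2 fold changes of 5 ± 0.5 and 5.12 ± 0.5 (SE) and adjusted p of 1.58e-20 and 2.40e-21, beside 0.993% of all genes called higher and 0.855% called lower. In neither fit was another member called, and without Scr 1 the other 6 lay between -0.62 (S100a6) and 0.64 (S100a1). Both fits use libraries of the same 4 mice and are not independent evidence. With any library other than Scr 1 left out, edgeR called neither gene of the pair. The log2 fold changes of S100a8 and S100a9 were then 2.95 and 3.14 without Scr 2. They were 4.22 and 4.42 without miR-99 KD 1, and 2.64 and 2.71 without miR-99 KD 2.

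Summed markers of granulocyte stages were higher in both miR-99 KD libraries, with a few genes making up most of each sum. The 11 late neutrophil markers summed to 852 and 289 CPM (Scr) against 2354 and 7555 (miR-99 KD), and the 10 that were tested all had a positive log2 fold change (median 1.36, and 1.82 without Scr 1). Most of this sum came from Ngp, with 441 and 146 CPM (Scr) against 1358 and 4821 (miR-99 KD), Camp and Lcn2. Camp had 219 and 45.3 CPM against 676 and 1835, and Lcn2 had 138 and 65 against 218 and 643. Ngp and Camp encode secondary granule proteins. The 5 primary granule markers summed to 5486 and 4134 CPM (Scr) against 8143 and 14711 (miR-99 KD), and Ctsg among them had a log2 fold change of -0.09. Retnlg, Mmp8 and Stfa2 overlapped between groups. DESeq2 called Ltf, Camp, Ngp and Lcn2 of the late list and Mpo of the primary list higher, 4 of 10 and 1 of 5 tested beside 0.725% of all genes, and edgeR called 0. Some late markers were low in every library. Ly6g, a surface protein of mature mouse neutrophils, had 16, 9, 27 and 40 counts, and Cxcr2 had 132, 85, 213 and 284. Retnlg had 96, 60, 88 and 84 counts, and Il1b had 9, 3, 14 and 7. Of the 10 late markers tested, 7 were higher in both miR-99 KD libraries in log2 CPM with TMM factors, beside 18.9% of all genes. Ly6g (log2 fold change 1.38 ± 0.51 SE) and Cxcr2 (1.16 ± 0.34) were among them, with edgeR adjusted p of 0.624 and 0.583. The 8 monocyte and macrophage markers summed to 2081 and 1960 CPM (Scr) against 2328 and 3645 (miR-99 KD), with 5 of 8 positive (median 0.38). Of these DESeq2 called F13a1 higher (adjusted p 0.0321) and Vcan lower (5.26e-06). No marker of these 3 lists was at 0 in any library. The summed markers of other cells ranged from 84.4 to 164 CPM for mast cells and basophils, 40.3 to 102 for erythroid cells, 6.98 to 15.7 for megakaryocytes and 0.776 to 2.44 for B cells. Among T and NK cell markers Nkg7 had 112 to 164 CPM, while Cd3e, Cd3g and Klrb1c each had at most 1.43 CPM. Among stroma and endothelium markers Pecam1 had 111 to 149 CPM, and each other gene had at most 2.78 CPM. The part of maturing cells in the calprotectin result was not tested. Of 6 progenitor markers tested, 3 had positive and 3 negative log2 fold changes. These were 0.15 for Cd34, 0.21 for Fcgr3 and 0.30 for Fcgr2b, and -0.67 for Kit, -0.92 for Hoxa9 and -0.61 for Meis1, with edgeR adjusted p of 0.466 to 0.794. Before adjustment the 3 negative ones had an edgeR p under 0.05, where 5.23% of all genes were lower, and 0 of the positive ones did. In log2 CPM, which is scaled by TMM factors, the 3 positive ones lay above Scr in both miR-99 KD libraries, beside 18.9% of all genes. The 3 negative ones lay below, beside 25.3%. In CPM on total gene counts Cd34 overlapped between groups, with 358 and 282 (Scr) against 345 and 334 (miR-99 KD). Fcgr3 overlapped too, with 437 and 370 against 413 and 482.

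The subunits kept close to equal counts, not scaled to transcript length, while their summed level ranged 48.3-fold over the libraries. Per kilobase of annotated exon S100a9 lay above S100a8 in every library, from 56.4 against 41 CPM per kb in Scr 2 to 2862 against 1877 in miR-99 KD 2. The exon length joins all annotated transcripts of a gene, 694 bases for S100a8 and 522 for S100a9. The order per kilobase thus rests on the annotation and not on measured transcript lengths. Calprotectin counts summed to 252, 57.9, 895 and 2796 CPM, or 0.0252%, 0.00579%, 0.0895% and 0.280% of all gene counts. The ratio of S100a8 to S100a9 counts was 1.02, 0.966, 0.959 and 0.872 in the same order. As a share of the pair's counts S100a8 made up 50.4% (95% exact Clopper-Pearson interval 49.4 to 51.4), 49.1% (47.1 to 51.1), 49.0% (48.5 to 49.5) and 46.6% (46.3 to 46.9). The interval of miR-99 KD 2, the library with the most of both transcripts, lay below the other 3, and these intervals cover counting error only. Among 9048 genes with a mean of at least 10 CPM, S100a9 was the gene closest to S100a8 in its pattern over the 4 libraries, and S100a8 the closest to S100a9. The distance was 0.16, as the Euclidean distance between log2 CPM values after subtracting each gene's mean.

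**Figure D2:**
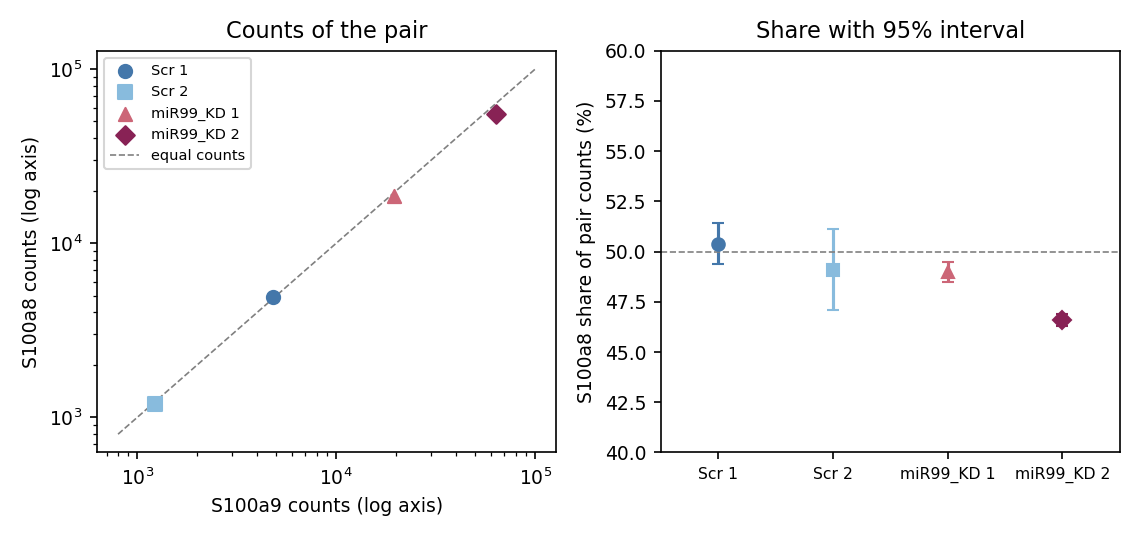
Left, counts of S100a8 against S100a9 in each library (both axes log, not scaled to transcript length), with a dashed line at equal counts. Right, the S100a8 share of the pair's counts in percent with its 95% interval, on an axis from 40 to 60%: 3 libraries lie between 49.0 and 50.4%, and miR-99 KD 2 lies at 46.6%.

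The other 6 members each stayed within a 2.17-fold range over the libraries. S100a11, the partner of annexin A1, was the most abundant of them, with 257 and 168 CPM (Scr) against 202 and 283 (miR-99 KD). The groups overlapped, and its log2 fold change was 0.26 ± 0.26 (SE, edgeR adjusted p 0.788). S100a10 had 65.9 and 58.6 CPM (Scr) against 42.8 and 80.5 (miR-99 KD), so the miR-99 KD libraries held both the lowest and the highest value (0.04 ± 0.33, adjusted p 0.976). S100a4 had 5.90, 4.80, 2.72 and 5.67 CPM, from 227, 201, 116 and 241 counts in the order Scr 1, Scr 2, miR-99 KD 1 and miR-99 KD 2. miR-99 KD 1 was its low library (-0.30 ± 0.41, adjusted p 0.845). Without miR-99 KD 1 the log2 fold change of S100a4 was 0.19, and without miR-99 KD 2 that of S100a10 was -0.43, so the sign of both rests on a single library.

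S100a6 was the only member below Scr in both miR-99 KD libraries. It had 38.4 and 37.4 CPM in Scr (1476 and 1567 counts) and 20.1 and 26.7 CPM in miR-99 KD (856 and 1135 counts), or 37.9 ± 0.675 and 23.4 ± 4.69 CPM (SD, n = 2 each). Its log2 fold change of -0.65 ± 0.22 (SE) had an unadjusted p of 0.0389 and an edgeR adjusted p of 0.621, and DESeq2 gave an adjusted p of 0.703. The difference was larger than the spread within either group but did not pass over all genes.

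The divergent neighbours S100a1 and S100a13 had like values in each library. S100a1 had 62.5 and 41.1 CPM (Scr) against 49.0 and 74.1 (miR-99 KD), and S100a13 had 47.2 and 32.0 CPM against 41.1 and 49.7 CPM. In both, Scr 2 was the lowest and miR-99 KD 2 the highest library, and the groups overlapped. Log2 fold changes were 0.31 ± 0.29 and 0.26 ± 0.24 (SE), with edgeR adjusted p of 0.777 and 0.771. Counts of S100a1 over S100a13 stood at 1.32 and 1.29 (Scr) against 1.19 and 1.49 (miR-99 KD). These genes were not the closest to each other: S100a13 was the 250th closest of 9048 genes to S100a1, and S100a1 the 509th closest to S100a13 (distance 0.23). The distance within the calprotectin pair was 0.16, so these ranks alone do not show a looser relation.

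**Figure D3:**
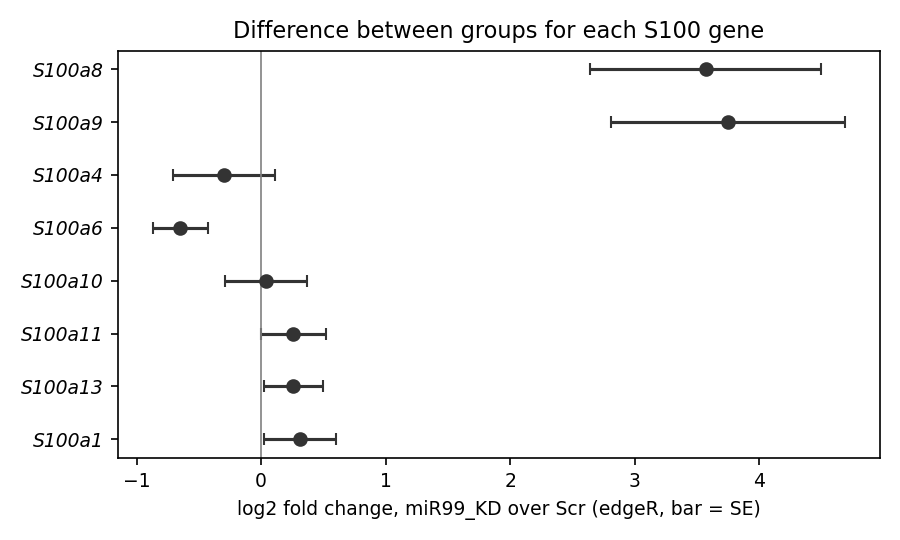
Log2 fold change of miR-99 KD over Scr from edgeR for each S100 gene, with bars of 1 SE. S100a8 (3.57) and S100a9 (3.75) stand apart from the other 6 genes, which lie between -0.65 (S100a6) and 0.31 (S100a1).

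Set side by side, the pair and the other 6 separated in the miR-99 KD libraries. The mean log2 CPM of the pair was 6.88, 4.90, 8.85 and 10.46, and that of the other 6 was 5.47, 5.23, 5.02 and 5.61. The pair thus lay 1.41 above the others in Scr 1, at -0.33 relative to them in Scr 2, and 3.83 and 4.85 above them in miR-99 KD. The group means of this difference were 3.8 apart on the log2 scale, and 4.67 apart without Scr 1. With 2 libraries a group it is given without a test. Of the counts of all 8 members calprotectin made up 34.6% (95% exact interval 34 to 35.1), 14.5% (14 to 15), 71.4% (71.1 to 71.8) and 84.3% (84.1 to 84.5).

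Per kilobase of annotated exon, a length that joins all annotated transcripts of a gene, the order of the members changed with the library. In Scr 2, S100a11 led with 328 CPM per kb, followed by S100a1 (59.2), S100a9 (56.4), S100a10 (48.4), S100a13 (44.7), S100a8 (41.0), S100a6 (27.4) and S100a4 (8.22). In Scr 1, S100a11 again led with 502 CPM per kb, ahead of S100a9 (239) and S100a8 (183). In miR-99 KD the pair led, with 875 and 2862 CPM per kb for S100a9, 631 and 1877 for S100a8, and 395 and 555 for S100a11. S100a6 and S100a4 were last in every library, at 14.7 to 28.1 and 4.65 to 10.1 CPM per kb. In Scr, S100a8, S100a9, S100a1, S100a13 and S100a10 overlapped in their ranges over the 2 libraries, apart from S100a10 against S100a1 and S100a9, so most neighbours in that part of the order do not differ beyond their spread.

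Against the background, 2 of the 8 members were higher at an unadjusted edgeR p under 0.05 where 2.66% of all genes were, and 1 was lower where 5.23% were. In log2 CPM with TMM factors both miR-99 KD libraries lay above both Scr libraries in 2 members, against 18.9% of all genes. They lay below in 1 member, against 25.3%. The median log2 fold change was 0.26 over the 8 members and 0.15 over the 6 without the pair, beside -0.01 over all genes tested. Without Scr 1 these medians were 0.57 and 0.35, beside 0 over all genes. These are counts over a named list and carry no test of the list.

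The other S100 genes looked up were nearly silent in these cells. The list left out S100a2 of the cluster, which did not pass the filter on low counts. Of 9 other genes looked up, 7 did not pass the filter on low counts, among them S100a5 and S100z with 0 counts in every library, which still leaves room for 0.0780 CPM in the shallowest library. S100a3 had 46 counts in Scr 1 and 3, 0 and 9 elsewhere, and S100a7a had 11 counts in Scr 1 and 0 elsewhere. Scr 1 is the library with the high olfactory receptor counts, and the part of that in these values was not tested. S100b, best known from glia, had 35 and 15 counts (Scr) against 11 and 3 (miR-99 KD) (log2 fold change -1.84 ± 0.82 SE, edgeR adjusted p 0.659). S100pbp, which encodes a protein that binds S100P and is itself no S100 protein, had 398, 387, 376 and 513 counts (0.15 ± 0.25, adjusted p 0.872).

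By the distance defined above, to the mean pattern of S100a8 and S100a9 over 4 libraries, the closest were Camp (0.29), the cathelicidin of secondary granules, and Ngp (0.55), a secondary granule protein of the cystatin type. Hook1 (0.81), a microtubule adaptor, Itgb2l (0.98), an integrin beta chain related to Itgb2, and the chitinase gene Chit1 (1.08) followed. Camp had 219 and 45.3 CPM (Scr) against 676 and 1835 (miR-99 KD), and Hook1 had 3.38 and 0.955 CPM against 15.9 and 24.6 CPM. All 5 had Scr 2 as the lowest and miR-99 KD 2 as the highest library, which largely follows from choosing them by closeness to the pair. Their edgeR adjusted p lay between 0.466 and 0.605. Of all genes tested 1341, or 8.60%, had their libraries in the order of the pair.

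**Figure D4:**
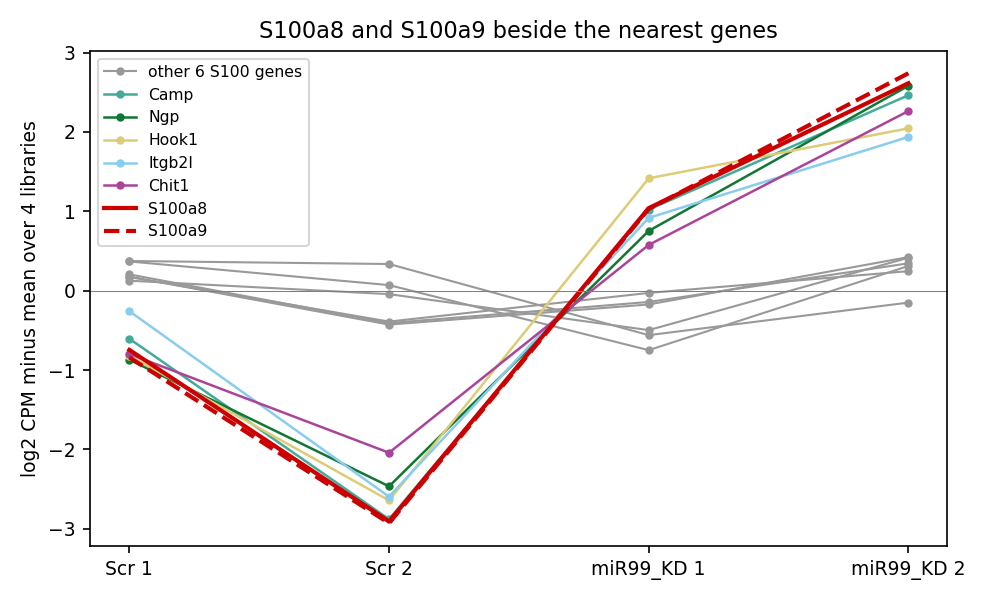
Log2 CPM minus the gene's mean over the 4 libraries (y axis) in each library (x axis) for S100a8, S100a9, the 5 closest genes and the other 6 S100 genes in grey. Lines only join the values of a gene. The pair and its 5 closest genes are lowest in Scr 2 and highest in miR-99 KD 2, and the grey lines stay near 0.

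Receptors described for S100 proteins had a median log2 fold change of 0.04 (0.14 without Scr 1). All 12 were tested, 8 above 0 and 4 below, and edgeR called 0 at an adjusted p under 0.05, with 1 higher and 1 lower before adjustment (p under 0.05). Tlr4, the pattern receptor that calprotectin engages, had 748 and 711 counts (Scr) against 791 and 781 (miR-99 KD) (0.08 ± 0.19 SE, edgeR adjusted p 0.913). The smallest p belonged to Alcam, an adhesion molecule also described to bind S100B, and to Cd33, a sialic acid-binding lectin of myeloid cells. Alcam had 164 and 173 counts (Scr) against 420 and 407 (miR-99 KD) (1.26 ± 0.23, edgeR adjusted p 0.465), and DESeq2 called it higher, with an adjusted p of 0.00221. Cd33 had 17647 and 16185 counts (Scr) against 10828 and 10945 (miR-99 KD) (-0.67 ± 0.14, adjusted p 0.466, DESeq2 0.297).

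Annexins and other intracellular partners had a median log2 fold change of 0.06 (0.20 without Scr 1). Of 18 tested, 13 lay above 0 and 5 below, edgeR and DESeq2 called 0, and 1 was higher in edgeR before adjustment (p under 0.05). That was the annexin gene Anxa3, with 16198 and 16191 counts (Scr) against 20448 and 27098 (miR-99 KD) (0.52 ± 0.19 SE, edgeR adjusted p 0.621). Cacybp, the calcyclin-binding protein that S100A6 contacts, had 8826 and 9873 counts against 11268 and 12849 (0.33 ± 0.16, adjusted p 0.667), opposite in sign to S100a6. Anxa2, the partner of S100a10, had 12592, 12271, 11192 and 20043 counts (0.29 ± 0.30, adjusted p 0.793). Counts of S100a10 over Anxa2 were 0.201 and 0.200 (Scr) against 0.163 and 0.171 (miR-99 KD), a comparison of reads not scaled to transcript length.

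Regulators of S100a8 and S100a9 transcription had a median log2 fold change of 0.41. Of 13 tested, 11 lay above 0 and 2 below, but without Scr 1 these were 7 and 6, with a median of 0.05. With all libraries edgeR and DESeq2 called 0, and 2 were higher in edgeR before adjustment (p under 0.05). These were Irf8, a monocyte fate factor with 8329 and 6432 counts (Scr) against 12125 and 18980 (miR-99 KD) (1.04 ± 0.28 SE, edgeR adjusted p 0.580), and the stress factor Atf3 with 8, 7, 19 and 38 counts (1.87 ± 0.56, adjusted p 0.585). In CPM both had their libraries in the order of the pair. Cebpe, the C/EBP factor of secondary granule genes, had 7211 and 4196 counts (Scr) against 5362 and 6371 (miR-99 KD), so its highest library was Scr 1 (0.01 ± 0.30, adjusted p 0.992). Cebpa, the C/EBP factor of granulocyte commitment, had 151 counts in Scr 1 and 822, 984 and 554 in the others, and Cebpd had 316, 1818, 2840 and 1834. Both were lowest in Scr 1, the library that stood apart, and without it their log2 fold changes were -0.07 and 0.39.

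Other small EF-hand genes gave a further comparison for the family. All 14 were tested, 10 above 0 and 4 below in log2 fold change (median 0.10, and 0.19 without Scr 1), and edgeR had 0 at an unadjusted p under 0.05 and DESeq2 called 0. The smallest p belonged to Capns1, the small calpain subunit (-0.39 ± 0.15 SE, edgeR adjusted p 0.639), and to Gca, the grancalcin of granulocytes, with 6225 and 6635 counts (Scr) against 3950 and 5636 (miR-99 KD) (-0.46 ± 0.22, adjusted p 0.667).

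The neighbours of the cluster had a median log2 fold change of -0.04, which turned to 0.06 without Scr 1. S100a6 ends 44.8 kb before S100a8 starts and had the opposite sign. Of the 61 protein-coding genes between S100a1 and S100a11 that are no S100a gene, mostly epidermal genes, 3 were tested. With the wider neighbourhood, 18 genes were tested, 8 above 0 and 10 below (11 and 7 without Scr 1), and edgeR called 0, with 1 higher and 1 lower before adjustment (p under 0.05). Ivl, the involucrin gene of the epidermis, had 72 and 114 counts (Scr) against 19 and 9 (miR-99 KD) (-2.75 ± 0.53 SE, edgeR adjusted p 0.466), and DESeq2 called it lower with an adjusted p of 0.00571. Npr1, a natriuretic peptide receptor, had 4, 2, 22 and 14 counts (2.51 ± 0.64, edgeR adjusted p 0.559).

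**Figure D5:**
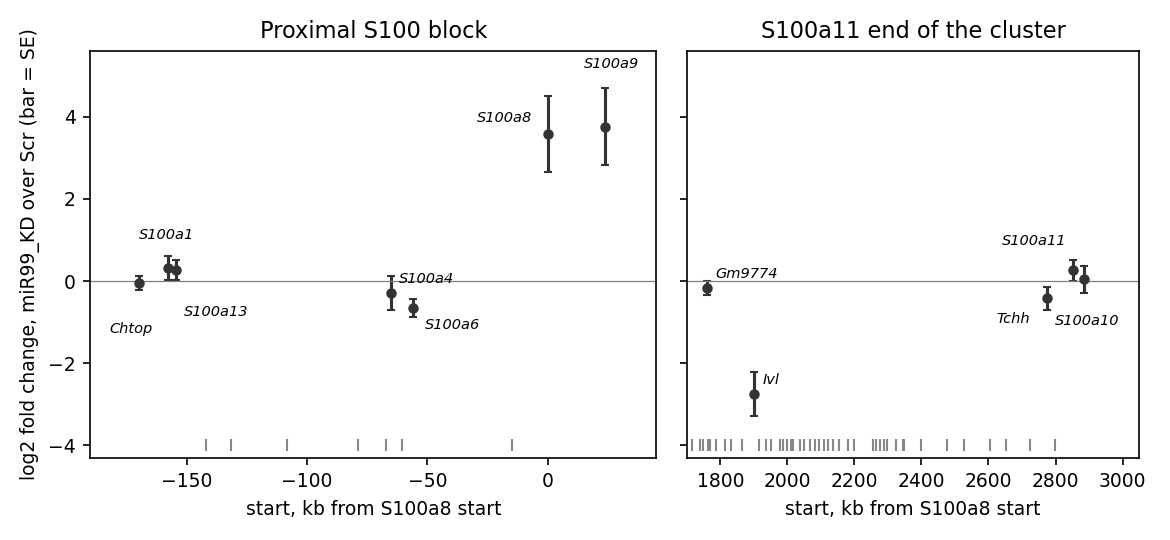
Log2 fold change of miR-99 KD over Scr (edgeR, bars of 1 SE) against the distance of the gene's start from that of S100a8 in kb, for tested protein-coding genes at both ends of the S100 cluster. Grey ticks near the bottom mark genes not tested and carry no value. S100a8 and S100a9 lie above 3, and the other S100 genes lie between -0.65 and 0.31.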

How the data were processed

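RNA sequencing counts of 4 libraries, 2 per group, were analysed as deposited. The deposited values are raw counts per Ensembl gene identifier, which per the file headers name only the library. STAR, Picard, HTSeq and DESeq2 are named, with the mm9 build, per the submitters' processing notes, and per the labels' protocols libraries were made by SMARTer amplification. The sources used here give neither strand setting nor annotation release. Categories that name no gene held 43.7% to 49.7% of entries and were left out.

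Symbols were matched for 44585 of 45232 identifiers. Coordinates, exon lengths and untranslated regions are from GENCODE M21 on GRCm38 by identifier, and none were converted. The test was edgeR 4.0.16 in R 4.3.3 (quasi-likelihood, two-sided, TMM, minimum count of 10, Benjamini-Hochberg over 15591 genes, threshold 0.05), and DESeq2 1.42.0 was an alternative. Residual degrees of freedom were 2, and edgeR's common biological variation came to 0.320. CPM uses total gene counts, and log2 CPM uses TMM factors and a prior count of 2. SE is derived from the test statistic. Scripts were tested on simulated data. A count of 0 allows up to 3 counts. Other alternatives were normalization, filter, prior count, replicate block and leaving out each library.

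The members and lists were chosen with earlier results of these data known. Named genes are the members, tested family genes, the 2 smallest p of each other list, the 5 genes closest to the pair, and markers. Other genes named (Tlr4, Anxa2, Cebpe, Cebpa, Cebpd and untested family genes) were chosen after their values were seen.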

Additional observations from a re-analysis of the deposited data

How the results depend on the processing

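The number of genes called at an adjusted p under 0.05 was 0 in edgeR and 261 in DESeq2, 23 with upper-quartile factors, 9 without a filter on low counts, and 0 to 294 with each library left out in turn, the highest without Scr 1. S100a8 and S100a9 kept a positive log2 fold change in each alternative run. DESeq2 gave 3.61 and 3.78, past the threshold. Leaving out each library gave 2.64 to 5 and 2.71 to 5.12, the highest without Scr 1. Of these runs only that without Scr 1 put the pair past the threshold. The difference of 3.8 between the pair and the other 6 ran from 2.93 to 4.67 with a library left out, and the cause of these changes was not tested. With each library left out S100a4 ran from -0.87 (without miR-99 KD 2) to 0.19 (without miR-99 KD 1), and S100a10 from -0.43 (without miR-99 KD 2) to 0.47 (without miR-99 KD 1), and the replicate block and its crossed form gave S100a10 -0.03. None of the other 4 members changed sign, and none of the 6 beside the pair passed the threshold in the alternatives run. Depth limits S100a4, with 116 to 241 counts, more than the other members.

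With the replicate block edgeR called 0 genes, and S100a8 and S100a9 had 3.70 and 3.82. Libraries with the same number deviated in opposite directions (r -0.428 across genes), so the numbers were not used as pairs. With crossed numbers, chosen after seeing the data, edgeR called 28 genes, among them S100a8 (3.70) and S100a9 (3.82), with adjusted p of 0.0145 each. The lists' values without Scr 1 were also added after seeing the data.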
